A study of Mus musculus with 8 samples.

Results

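The genes described here encode the subunits of the mitochondrial respiratory chain and ATP synthase. They are the protein-coding genes whose names begin with Ndufa, Ndufb, Ndufc, Ndufs or Ndufv and a digit, Uqcr, Cox4 to Cox8, Atp5 or mt-, together with Sdha, Sdhb, Sdhc and Sdhd. Cox6a2 was left out. The rule used names only and found 100 of the 56748 genes in the count table, of which 87 are nuclear and 13 lie on mitochondrial DNA. Complex I has 44 of them, complex II 4, complex III 9, complex IV 23 and complex V 20, with Ndufa4 and Ndufa4l2 counted in complex IV. The row Cox5b-ps, whose name marks a pseudogene of Cox5b, is annotated as protein-coding. The rule kept it, and it is counted among the tested nuclear genes of complex IV.

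Poly(A) RNA from peripheral blood mononuclear cells (PBMCs) was sequenced in wild-type male C57BL/6J mice that were 8 weeks old when dosing began. One group received fucoidan, a sulphated polysaccharide of brown seaweed, here from Undaria pinnatifida, by daily oral gavage at 200 mg per kg for 1 month, and the control group received saline by gavage for the same time. Saline had 5 libraries and fucoidan 3, titled as biological replicates. The series' title concerns fucoidan given around surgery, immunity and cognitive recovery, and the design text for these libraries describes gavage alone.

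Complexes I to IV pass electrons from NADH and succinate to oxygen and build a proton gradient across the inner mitochondrial membrane, and complex V uses that gradient to make ATP. Mitochondrial DNA encodes a small hydrophobic core of complexes I, III, IV and V, while every subunit of complex II is nuclear, so the complexes are assembled from the products of both genomes. Lymphocytes and monocytes carry mitochondria, platelets keep a few, and red cells lose theirs as reticulocytes mature.

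A number of these genes have stretches of sequence that bear on how their values can be read. The region of mitochondrial DNA from mt-Co1 to mt-Nd4 has a near-identical nuclear copy, annotated in the count table as a run of pseudogenes on chromosome 1 between positions 24650616 and 24655278 (GRCm39). The first 60 bases of mt-Co2 and of its copy Gm28661 (681 bases, chr1:24653966-24654646) are shown because the 681 aligned bases hold no difference. The first 33 bases of mt-Nd3 and of its copy Gm28438 (chr1:24651856-24652200) are shown because they hold the single difference in 345 bases, in capitals. Sequences are from the GENCODE M21 transcripts (GRCm38), and coordinates are those of the count table.
mt-Co2: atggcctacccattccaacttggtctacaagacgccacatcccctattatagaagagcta
Gm28661: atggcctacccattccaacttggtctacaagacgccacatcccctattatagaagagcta
mt-Nd3: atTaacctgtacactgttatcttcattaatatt
Gm28438: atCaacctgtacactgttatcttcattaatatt

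The difference in that pair is T3C, counted from the first base of mt-Nd3 with the mitochondrial base first. mt-Co1 differs from its copy Gm29216 by A1066T over the 483 bases they share. mt-Atp6, mt-Co3 and mt-Nd4l had copies without a mismatch over 678, 783 and 294 bases, and 876 of the 1378 bases of mt-Nd4 lay in Gm28439. mt-Nd1, mt-Nd2, mt-Nd5, mt-Nd6 and mt-Cytb had no base in an annotated copy of at least 98% identity.

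Promoters of the nuclear genes that rose were searched because several of them moved together. RefSeq (GRCm38.p6) gave a promoter, 250 bases before to 50 after the gene's start, for 67 of the 80 nuclear members tested, including 10 of the 11 that rose. The search, on both strands, covered GCGCANGCG for NRF1, CCGGAAG for the ETS factor GABP, AANATGGCG for YY1 and AGATAA for GATA factors. NRF1, GABP and YY1 are known regulators of respiratory genes, and GATA factors are known in blood lineages. The lines below show 80 bases around a match in capitals, for an NRF1 match in Atp5l and Cox6a1 and an ETS match in Cox6b1. They lie at chr9:44920913-44920992, chr5:115349077-115349156 and chr7:30626115-30626194, all on the minus strand.
Atp5l: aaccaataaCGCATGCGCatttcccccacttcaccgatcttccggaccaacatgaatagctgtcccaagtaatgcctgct
Cox6a1: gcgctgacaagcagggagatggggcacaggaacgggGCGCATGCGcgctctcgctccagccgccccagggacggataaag
Cox6b1: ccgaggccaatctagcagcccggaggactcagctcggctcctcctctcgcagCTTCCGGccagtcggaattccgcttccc

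The NRF1 letters stood in 2 of the 10 promoters of genes that rose and in 17 of the 57 others tested, against 6.47% of all 27025 promoters in the table. The ETS letters stood in 3 of 10 and 13 of 57 (9.12% of all), and the YY1 letters in 1 of 10 and 7 of 57 (2.51% of all). The GATA letters stood in 0 of 10 and 6 of 57 (11.4% of all). The NRF1 letters read nearly the same on either strand, so 1 place can match on both. A match describes letters and not a bound site.

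Total counts per library ran from 13061703 to 16334932, and values are CPM (counts scaled to a common library total) on library sizes scaled by trimmed means (TMM). A gene was called when edgeR's quasi-likelihood test gave a Benjamini-Hochberg adjusted p under 0.05 over the 14723 genes tested. Over all genes, 1341 (9.11%) were called higher with fucoidan and 684 (4.65%) lower, and the median log2 fold change was -0.04. With upper-quartile factors in place of TMM the calls were 1241 higher and 989 lower, and among the genes described here 9 and 3. Haemoglobin genes took 3.51 to 8.48% of counts after saline and 13.5 to 24.1% after fucoidan, with fucoidan replicate 3 the highest. Erythroid markers were called higher for 17 of 18 tested (summed CPM 33142 to 91348 against 160491 to 382642), platelet markers for 14 of 14 (2927 to 6215 against 8781 to 18887) and NK markers for 11 of 11 (300.4 to 438.6 against 729.4 to 1015). B cell markers were called lower for 8 of 10 (7489 to 9686 against 4717 to 6650). T cell markers were called higher for 4 of 12, and their summed CPM did not overlap (917.3 to 1155 against 1285 to 1742). No defining marker of these lists was at 0 in all libraries, and the part of these cells in the results on respiratory genes was not tested. In bulk samples, fewer cells of a type and less RNA per cell cannot be told apart.

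With fucoidan, 11 nuclear respiratory genes rose and 2 mitochondrial genes fell, out of 92 members with enough counts to be tested. That is 11 higher (12.0%, against 9.11% of all genes) and 2 lower (2.17%, against 4.65% of all genes), so the share over the whole chain was near the background. Without fucoidan replicate 3 the count of higher members was 4 (Cox6b2, Cox5a, Cox7b and Ndufa1). It was 6 without saline replicate 4 or saline replicate 5, and 7 without fucoidan replicate 1. The groups did not overlap for 11 members on the higher side and for 10 on the lower side, beside 11.6% and 11% of all genes. The rises gathered by complex: 7 of 15 tested nuclear genes of complex IV, 2 of 36 of complex I, 2 of 17 of complex V, and 0 in complexes II and III. The median log2 change was -0.01 over the 80 nuclear members and -0.29 over the 12 mitochondrial ones. Nuclear members lay above 0 for 34 and below for 46, a split that turned with median-of-ratios factors (43 and 37). For low counts, 8 members were not tested: mt-Atp8, Cox8b and Ndufa4l2 had a few counts, while Cox4i2, Cox7b2, Cox8c, Ndufb11b and a second row named Atp5o had 0 counts in every library.

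**Figure D1:**
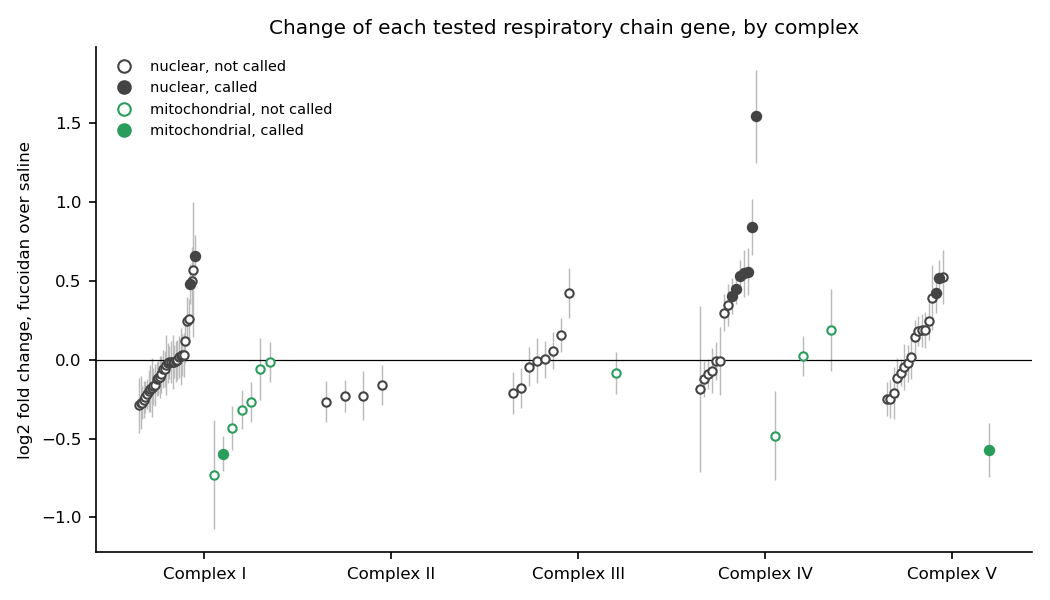
Log2 fold change (fucoidan over saline) of each of the 92 tested members, by complex and genome, ordered within each set by value. Points are edgeR estimates, bars their standard errors, and filled points passed an adjusted p of 0.05. The 7 filled points of complex IV are nuclear, and the 2 filled points below 0 are mitochondrial.

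Complex IV, cytochrome c oxidase, hands electrons from cytochrome c to oxygen, and its nuclear subunits surround the mitochondrial core and tune its activity. Of its 15 tested nuclear genes, 7 rose with fucoidan: Cox6b2, Cox5a, Ndufa4, Cox6a1, Cox7b, Cox6c and Cox6b1. Their rises ran from 1.32-fold to 2.92-fold. No nuclear gene of the complex fell, the median of the 15 was 0.35 on the log2 scale, and 9 lay above 0 and 6 below. In the 17 other settings the median ran from 0.21 (without fucoidan replicate 3) to 0.46 (without fucoidan replicate 2). In those settings 9 to 11 lay above 0 and 4 to 6 below. Without fucoidan replicate 3 the calls of Cox6a1, Cox6b1, Cox6c and Ndufa4 were lost.

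Cox6b2, on chromosome 7 (4754791 to 4756093, minus strand), encodes the testis isoform of subunit VIb. It was read at 3.28, 2.65, 6.02, 3.87 and 2.57 CPM in saline replicates 1 to 5 and at 10.2, 7.64 and 14.5 CPM in fucoidan replicates 1 to 3. The lowest fucoidan library was above the highest saline library. The log2 fold change was 1.55 (SE 0.294, edgeR adjusted p = 0.00648), the largest among the members tested. Its level was low, at 3.32 CPM per kilobase after saline beside 70.9 for Cox6b1, the widespread isoform of the same subunit. Cox6b1 (chromosome 7, 30316286 to 30325576) stood at 60.0, 44.8, 50.0, 49.0 and 47.1 CPM after saline and 68.1, 59.3 and 71.8 after fucoidan. The groups overlapped through saline replicate 1, which was above fucoidan replicate 2. Its log2 change was 0.40 (SE 0.114, edgeR adjusted p = 0.0387), and a fit blocked on replicate number lost the call (0.37, adjusted p = 0.0820). The call was also lost with upper-quartile factors (adjusted p = 0.0512), without the filter on low counts, and on leaving out any 1 library other than saline replicate 1 and fucoidan replicate 2, up to an adjusted p of 0.146 without fucoidan replicate 3.

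Cox5a, the larger of the pair of Cox5 subunits on the matrix face, rose by 0.84 on the log2 scale (SE 0.176, edgeR adjusted p = 0.00992). Its libraries gave 47.3, 33.4, 47.8, 43.6 and 34.9 CPM after saline and 75.4, 54.4 and 93.3 CPM after fucoidan. All 3 fucoidan libraries were above all 5 saline libraries. Cox5b, its partner, did not pass the test at -0.09 (SE 0.0953), with 39.4 ± 2.85 CPM with saline (SD, n = 5) and 37.0 ± 0.310 with fucoidan (SD, n = 3). Whether the pair differed in response was not tested. The row of Cox5a (chromosome 9, 57428557 to 57439709) overlaps a long non-coding gene on the other strand, Gm26631.

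Cox7b, a small membrane subunit on the X chromosome (105059306 to 105066056), gave 35.2, 28.9, 33.4, 32.7 and 31.5 CPM after saline and 45.2, 42.9 and 52.2 CPM after fucoidan. The groups were apart, and the saline libraries lay within a range of a few CPM. The log2 change was 0.53 (SE 0.103, edgeR adjusted p = 0.00730). Cox6c, on chromosome 15 (35926032 to 35938392), gave 49.0, 45.7, 52.6, 53.0 and 49.8 CPM after saline and 63.1, 67.2 and 74.6 after fucoidan. These groups did not overlap either, and the log2 change was 0.45 (SE 0.0947, edgeR adjusted p = 0.0104). Without fucoidan replicate 3 the call was lost (adjusted p = 0.0570). The end of Cox6c overlaps Vps13b on the opposite strand, and no source used here gives the strand setting of the counting.

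Cox6a1 encodes the non-muscle isoform of subunit VIa and had the highest nuclear level per length, 169 CPM per kilobase after saline. It gave 127, 105, 141, 117 and 104 CPM after saline and 163, 143 and 216 after fucoidan. Saline replicate 3 came within a few CPM of fucoidan replicate 2, without overlap. The log2 change was 0.55 (SE 0.147, edgeR adjusted p = 0.0306). Ndufa4, once assigned to complex I and now known as a subunit of complex IV, gave 53.1, 36.2, 44.3, 40.2 and 39.4 CPM after saline and 65.9, 49.9 and 72.9 after fucoidan. Its groups overlapped through saline replicate 1, and the log2 change was 0.56 (SE 0.149, edgeR adjusted p = 0.0294). On leaving out saline replicate 4, saline replicate 5, fucoidan replicate 1 or fucoidan replicate 3, the calls of Cox6a1 and Ndufa4 were lost, with adjusted p up to 0.148 and 0.133, and that of Cox6a1 also without saline replicate 2. Fucoidan replicate 3, the library with the most haemoglobin, had the highest value of all 8 libraries for each of the 11 genes that rose.

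**Figure D2:**
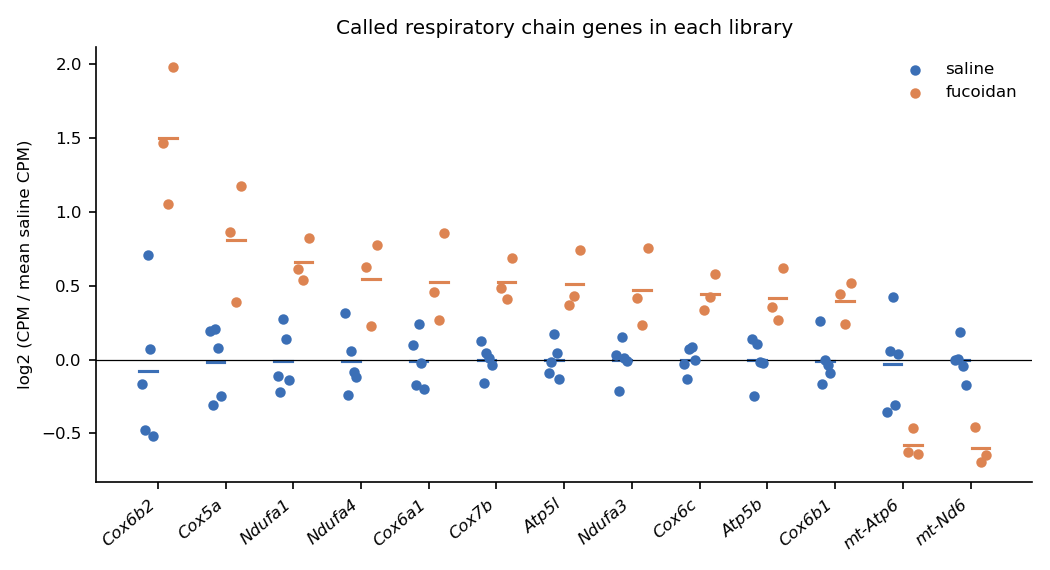
CPM of the 13 called members in each library, as log2 of the ratio to the mean of the 5 saline libraries. Each point is a library and each short line the mean of the log2 values in a group. Orange points of Ndufa4 and Cox6b1 reach into the blue saline points, and those of the other 11 genes do not.

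The other nuclear genes of complex IV did not pass the test. Cox4i1, the common isoform of the regulatory subunit IV, was read at 193 ± 20.6 CPM in the saline group (SD, n = 5) and 192 ± 21.4 CPM in the fucoidan group (SD, n = 3), a log2 change of -0.01 (SE 0.119) that took the other sign with median-of-ratios scaling (0.01). Its isoform of lung and hypoxic tissue, Cox4i2, had 0 counts. Cox8a, a small ubiquitous subunit, had a log2 change of 0.35 (SE 0.135, edgeR adjusted p = 0.116), and Cox7a2, the common isoform of subunit VIIa, had 0.30 (SE 0.118, edgeR adjusted p = 0.122). Cox7a2l had -0.12 (SE 0.115). The heart and muscle isoform Cox7a1 was near the detection limit, at 0.495 ± 0.164 CPM (SD, n = 5) after saline, and gave -0.19 (SE 0.526). Markers of heart and skeletal muscle summed to 1.07 to 2.98 CPM after saline and 1.52 to 1.83 CPM after fucoidan.

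Complex I, the NADH dehydrogenase, has a matrix arm that takes electrons from NADH, a membrane arm that pumps protons, and a shell of accessory subunits. Its nuclear genes had 2 of 36 called higher and 0 lower. Both that rose are accessory subunits. Ndufa1, a small membrane subunit needed for assembly, is on the X chromosome (36451241 to 36454816) and gave 22.7, 21.1, 29.8, 27.0 and 22.3 CPM after saline and 37.7, 35.7 and 43.5 after fucoidan. The groups were apart, with a log2 change of 0.66 (SE 0.132, edgeR adjusted p = 0.00820). Ndufa3 gave 41.3, 34.8, 45.0, 40.7 and 40.2 CPM after saline and 53.9, 47.6 and 68.2 after fucoidan. It rose by 0.48 on the log2 scale (SE 0.127, edgeR adjusted p = 0.0286) without overlap. The call was lost without saline replicate 4, saline replicate 5, fucoidan replicate 1 or fucoidan replicate 3, with an adjusted p up to 0.148. The Ndufa3 row (chromosome 7, 3620372 to 3623326) overlaps Tfpt on the other strand.

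The matrix arm core of complex I holds the flavin and the iron-sulphur clusters that carry electrons. All 7 of its nuclear genes had log2 changes below 0, from -0.27 to -0.11, with a median of -0.20 and 0 called (edgeR), of which 1 had an unadjusted p under 0.05. Ndufv1, which binds NADH, gave 58.3, 43.9, 51.0, 50.1 and 43.1 CPM after saline and 41.9, 37.7 and 44.6 after fucoidan, so the groups overlapped (-0.25, SE 0.120, edgeR adjusted p = 0.198). Ndufs1, the largest subunit of that arm, had -0.12 (SE 0.108). All 7 stayed below 0 under each of the 17 other settings tried, in which the median ran from -0.25 (without saline replicate 2) to -0.10 (without saline replicate 1). The 29 tested accessory genes had a median of -0.01, with 11 above 0 and 18 below, and that split turned with the scaling (17 above 0 with median-of-ratios factors, 7 with upper-quartile factors). Ndufc2 had the lowest change of the nuclear genes of complex I, -0.29 (SE 0.174, edgeR adjusted p = 0.312).

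Complex II, succinate dehydrogenase, is shared with the citric acid cycle and has no mitochondrially encoded part. None of its 4 genes passed edgeR's test, and 1 had an unadjusted p under 0.05. Sdha, the flavoprotein, gave 228, 182, 213, 214 and 211 CPM after saline and 181, 180 and 176 after fucoidan. The fucoidan libraries were all below the saline ones, by a narrow margin to saline replicate 2 (log2 change -0.23, SE 0.0997, edgeR adjusted p = 0.157). Sdhc, a membrane anchor, had -0.27 (SE 0.131), also without overlap. Sdhb, the iron-sulphur subunit, had -0.23 (SE 0.153), and Sdhd, the other anchor, -0.16 (SE 0.125), with groups that overlapped. All 4 lay below 0 in each of the 17 other settings, but their size rested in part on saline replicate 1. Without that library the median went from -0.23 to -0.13, Sdhb was at -0.10, Sdhc at -0.17 and Sdhd at -0.08. None of 13 tested genes of the citric acid cycle was called in either direction (median -0.01).

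Complex III passes electrons from ubiquinol to cytochrome c. None of its 8 tested nuclear genes was called by edgeR, 1 had an unadjusted p under 0.05, and 4 lay on each side of 0. Uqcr11, a small peripheral subunit, gave 14.9, 14.4, 15.5, 17.5 and 17.1 CPM after saline and 19.7, 17.1 and 27.5 after fucoidan, and fucoidan replicate 2 lay among the saline libraries (0.42, SE 0.156, edgeR adjusted p = 0.100). Uqcrfs1, the Rieske iron-sulphur protein, had -0.18 (SE 0.127), and Uqcrc1, a core protein, had -0.21 (SE 0.133), the lowest of the set. The naming rule leaves out Cyc1, the cytochrome c1 subunit of this complex, so it is not among the 8. It also leaves out Cycs, the carrier cytochrome c. Cyc1 and Cycs had log2 changes of -0.16 (SE 0.134) and -0.07 (SE 0.139) and were not called.

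Complex V, the ATP synthase, couples a rotating ring in the membrane to a catalytic head in the matrix. Of its 17 tested nuclear genes 2 rose and 0 fell. Atp5b, the catalytic beta subunit and the most abundant nuclear member by CPM, gave 506, 388, 495, 455 and 453 CPM after saline and 587, 552 and 707 after fucoidan. The groups were apart, with a log2 change of 0.42 (SE 0.125, edgeR adjusted p = 0.0463), and the call was lost with the replicate block (0.41, adjusted p = 0.0648). It was also lost with upper-quartile factors (adjusted p = 0.0630) and on leaving out any 1 library other than saline replicate 1, up to an adjusted p of 0.182 without fucoidan replicate 3. Its partner in the head, the alpha subunit Atp5a1, was read at 415 ± 52.6 CPM in the saline group (SD, n = 5) and 409 ± 12.3 CPM in the fucoidan group (SD, n = 3), a log2 change of -0.02 (SE 0.119). The difference between the responses of these partners was not tested. Atp5d, in the central stalk, had the lowest change among the nuclear genes of complex V, -0.25 (SE 0.108, edgeR adjusted p = 0.155).

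Atp5l, the small membrane subunit g, gave 40.4, 42.4, 48.5, 44.3 and 39.3 CPM after saline and 55.5, 57.8 and 72.0 after fucoidan. It rose by 0.52 on the log2 scale (SE 0.113, edgeR adjusted p = 0.0117), with no overlap, and its row overlaps the long non-coding gene Gm30934. Without fucoidan replicate 3 the call was lost (adjusted p = 0.0630). The 5 small membrane subunits all lay above 0, from 0.18 to 0.52 with a median of 0.25, in the reported fit and under each of the 17 other settings. Only Atp5l among them was called. Atp5e, the epsilon subunit of the stalk, had the highest change of complex V but missed the threshold, with fucoidan values of 97.1, 98.6 and 166 CPM against 72.4 to 95.3 after saline (0.53, SE 0.171, edgeR adjusted p = 0.0648). It passed in DESeq2, without the filter on low counts and without fucoidan replicate 1. Without fucoidan replicate 3 its log2 change was 0.24 (edgeR adjusted p = 0.301), and with the replicate block it was 0.40 (adjusted p = 0.111). The 3 genes for the c ring, annotated Atp5g1, Atp5g2 and Atp5g3, lay at -0.05 (SE 0.147), -0.12 (SE 0.128) and -0.08 (SE 0.0850). Atpif1, the inhibitor that stops the enzyme from running backwards, has a name outside the rule. It gave 24.9, 17.3, 27.8, 20.5 and 14.7 CPM after saline and 43.9, 37.8 and 72.2 after fucoidan, a rise of 1.28 on the log2 scale (SE 0.235, edgeR adjusted p = 0.00562).

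The nuclear genes that rose were mostly short. Their median coding length was 300 bases against 430.5 for the other 68 nuclear genes with a coding length, and 9 of 11 were under 400 bases. Among tested nuclear members under 400 bases, 9 of 38 rose (23.7%), and among longer ones 2 of 41 (4.88%). Of those 9 short genes, only Ndufa1, Ndufa3 and Atp5l lie outside complex IV. Length and membership of complex IV were not told apart. Over all tested genes with a coding length, the shares were 10.4% of 838 under 400 bases and 9.71% of 11471 at or above. Cox5a and Atp5b were the pair of longer genes that rose. Mitochondrial ribosomal proteins, another large set of nuclear genes for the organelle, had 1 of 77 called higher (Mrps6, 0.93, SE 0.275, edgeR adjusted p = 0.0469) and 0 lower. The shares over all genes were 9.11% higher and 4.65% lower.

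**Figure D3:**
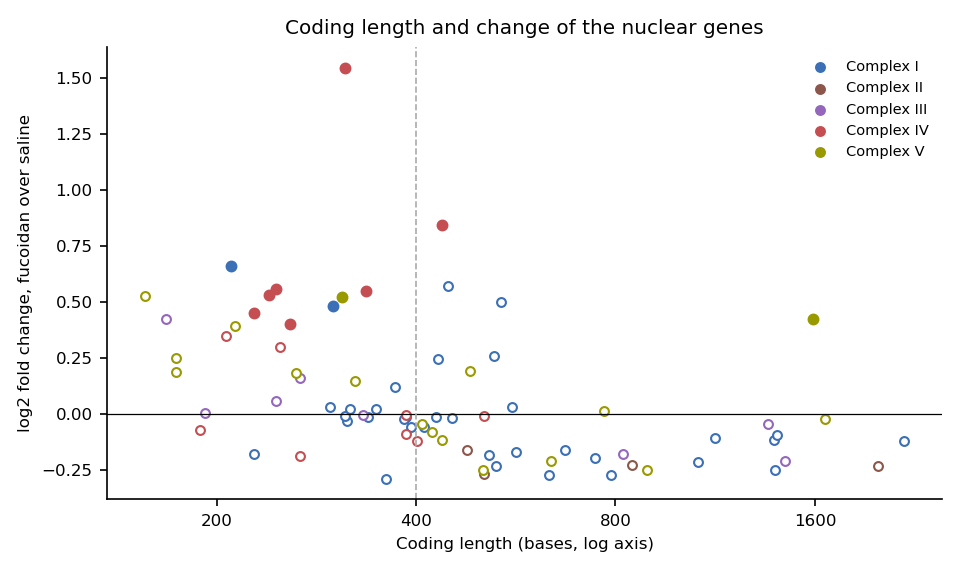
Coding length in bases (log axis) and log2 fold change of each of the 79 tested nuclear members with a coding length. Colours are the complexes, filled points were called higher, and the dashed line marks 400 bases. Left of the line are 9 of the 11 filled points.

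Of the 12 mitochondrial genes tested, 2 fell and 0 rose, and 10 had log2 changes below 0. mt-Nd6 encodes a complex I subunit and is the only one of the 13 on the other strand (MT, 13552 to 14070). It gave 225, 227, 257, 219 and 201 CPM after saline and 164, 139 and 144 after fucoidan. The groups were well apart, and the log2 change was -0.60 (SE 0.111, edgeR adjusted p = 0.00593), called in each of the 17 other settings. mt-Nd6 overlaps the end of mt-Nd5 on the opposite strand by a few bases. The strand setting of the counting is not given, so reads of the opposite strand over the mt-Nd6 row cannot be told apart. mt-Atp6, subunit a of the ATP synthase, gave 26.0, 34.6, 44.5, 26.8 and 34.0 CPM after saline and 21.5, 24.1 and 21.3 after fucoidan. The log2 change was -0.57 (SE 0.173, edgeR adjusted p = 0.0498), just inside the threshold, and the call was lost with median-of-ratios factors, without haemoglobin genes before scaling, and on leaving out any 1 library other than saline replicates 1 and 4.

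The 5 genes without a nuclear copy all had log2 changes below 0, in the reported fit and in the 17 other settings, with a median of -0.32. mt-Nd5, a proton-pumping subunit of complex I, gave 938, 1272, 1331, 1275 and 1120 CPM after saline and 960, 888 and 795 after fucoidan. Only saline replicate 1 reached into the fucoidan range, and the change of -0.43 (SE 0.140) missed the threshold (edgeR adjusted p = 0.0645). It was called lower in DESeq2 (adjusted p = 0.0237), in limma-voom, with upper-quartile factors, without the filter on low counts and without saline replicate 1, and its adjusted p reached 0.231 without fucoidan replicate 3. mt-Nd1, another membrane subunit, had -0.32 (SE 0.124, edgeR adjusted p = 0.122) with groups that did not overlap, and mt-Nd2 had -0.27 (SE 0.125). mt-Cytb, the cytochrome b of complex III, had -0.09 (SE 0.133), with 1973 ± 210 CPM with saline (SD, n = 5) and 1860 ± 229 with fucoidan (SD, n = 3).

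mt-Co1, the catalytic subunit of complex IV, was the most abundant member of all, at 7323, 7287, 8625, 7570 and 7011 CPM after saline and 7637, 7507 and 7934 after fucoidan. The libraries of the groups were interleaved, and the log2 change was 0.02 (SE 0.127), with the other sign under upper-quartile scaling (-0.03). It made up 53.2 ± 1.20% of the counts of mitochondrial members with saline (SD, n = 5) and 57.5 ± 2.38% with fucoidan (SD, n = 3). mt-Nd4 also did not pass, at -0.02 (SE 0.126), a sign that turned with median-of-ratios factors (0.0039).

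Levels along mitochondrial DNA differed between genes with and without a nuclear copy. After saline, the 5 genes with over 98% of their bases in a near copy (mt-Co2, mt-Atp6, mt-Co3, mt-Nd3 and mt-Nd4l) were read at 10.6 to 63.7 CPM per kilobase. The 5 genes without a copy were read at 435 to 1725 CPM per kilobase, mt-Co1 at 4895 and mt-Nd4 at 592. mt-Atp8, which lies between mt-Co2 and mt-Atp6 and has no annotated copy of its own, had 0 to 11 counts per library. No source used here says how reads that match more than 1 place were counted, and the part of the copy in these levels was not tested.

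The copies took unequal parts of the counts they share with the genes they match. Of the counts of mt-Atp6 and Gm10925 together, the copy took 39.9 to 53.5% over the 8 libraries, and of mt-Co2 and Gm28661 together it took 28.2 to 44.5%. The copy's part was 27.0 to 78.1% for mt-Co3, 27.6 to 53.8% for mt-Nd4l and 9.68 to 52.9% for mt-Nd3. For mt-Co1 and mt-Nd4, which lie only partly in a copy, it stayed below 1%. Summed with its copy, a sum chosen after the data were seen, mt-Atp6 stood at 59.4 ± 8.67 CPM with saline (SD, n = 5) and 44.2 ± 2.72 with fucoidan (SD, n = 3), with ranges of 51.1 to 74.0 and 41.1 to 46.1 that did not overlap. For the other 4 pairs the summed groups overlapped, and summing moved the direction or size. On the log2 ratio of mean summed CPM, mt-Co3 was at -0.23, mt-Nd3 at 0.23, mt-Co2 at -0.29 and mt-Nd4l at -0.55. The copy of mt-Co3, Gm28437, had 1344 counts in saline replicate 4 and 168 to 435 in the other libraries. The copy of mt-Nd3, Gm28438, had 111 counts in fucoidan replicate 1 and 11 to 37 in the others. The summed directions of mt-Co3 and mt-Nd3, and the highest parts of their copies, therefore rest on a single library each. Taken without their copies, mt-Co2 (-0.48, SE 0.282), mt-Nd4l (-0.73, SE 0.347), mt-Nd3 (-0.06, SE 0.197) and mt-Co3 (0.19, SE 0.259) were not called, and the sign of mt-Co3 also turned with the replicate block (-0.03). The values of all 5 are therefore uncertain as measures of mitochondrial transcripts.

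**Figure D4:**
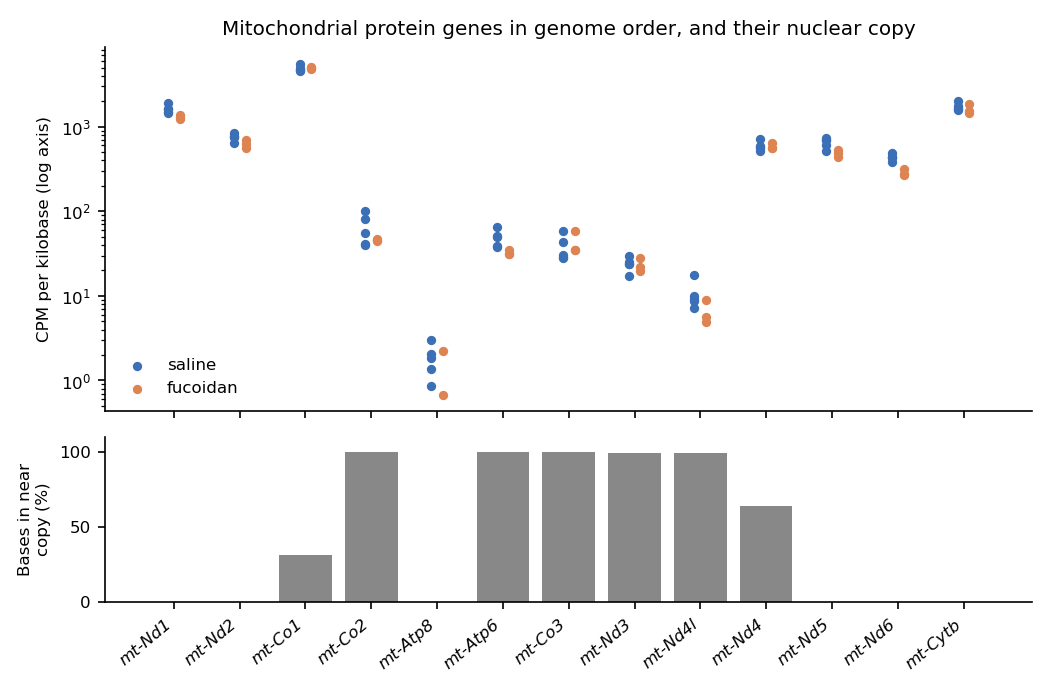
Upper panel: CPM per kilobase (log axis) of the 13 mitochondrial protein genes in the order of the genome, 1 point per library; a library with 0 counts of mt-Atp8 is not drawn. Lower panel: percent of each gene's bases in a near-identical annotated nuclear copy. The 5 genes with over 98% in a copy, and mt-Atp8 between them, lie below the genes on either side of them.

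Summed over members, mitochondrial transcripts took 1.57 ± 0.0840% of counts with saline (SD, n = 5) and 1.14 ± 0.188% with fucoidan (SD, n = 3). Nuclear members took 0.498 ± 0.0393% and 0.405 ± 0.0400%. On the TMM scale, which allows for the larger haemoglobin share, the mitochondrial sum was 14217 ± 1300 CPM after saline and 13383 ± 462 after fucoidan, and the nuclear sum 4514 ± 426 and 4795 ± 382, each with overlapping groups. The log2 ratio of mitochondrial to nuclear counts was 1.66 ± 0.180 after saline (SD, n = 5, range 1.36 to 1.82) and 1.48 ± 0.109 after fucoidan (SD, n = 3, range 1.36 to 1.56). These ranges overlapped, and the difference of -0.17 was near the spread within groups (pooled SD 0.160). With only the 5 mitochondrial genes that have no near copy, a choice made after the data were seen, the difference was -0.34. Saline replicate 1 lay within the fucoidan range of that ratio, so the groups overlapped there too.

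The ribosomal RNAs of the mitochondrion, which share a strand and promoters with most of the messages, did not follow them. mt-Rnr1 and mt-Rnr2 together gave 6566 ± 1666 CPM with saline (SD, n = 5) and 17372 ± 6276 with fucoidan (SD, n = 3), and their ratio to the summed messages was 0.371 to 0.573 after saline and 0.881 to 1.80 after fucoidan, with no overlap. In the edgeR test, mt-Rnr1 rose by 1.57 on the log2 scale (SE 0.257, adjusted p = 0.00406) and mt-Rnr2 by 1.33 (SE 0.238, adjusted p = 0.00533). Neither had a base in an annotated copy of at least 98% identity. The libraries were selected for poly(A), so the share of ribosomal RNA that entered them need not be the share in the cells, and the part of this step, and of the haemoglobin share that was higher in the same libraries, was not tested.

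**Figure D5:**
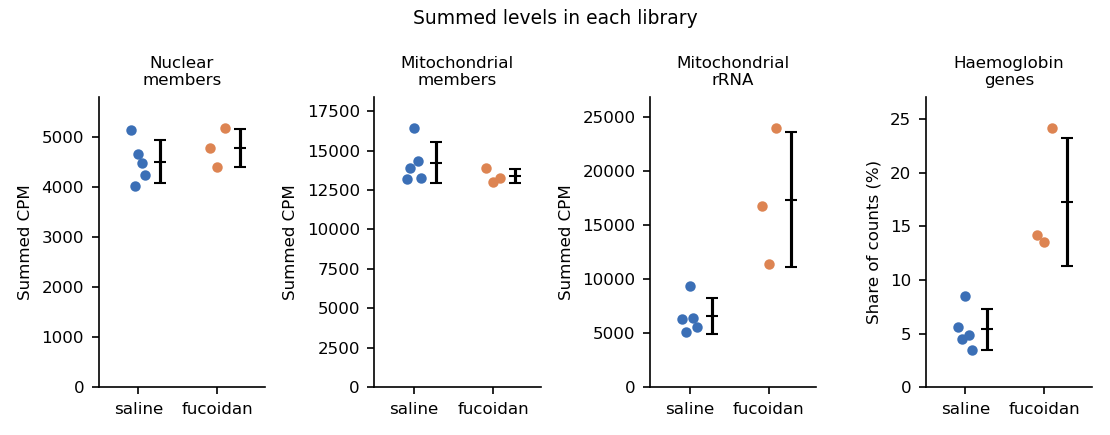
Summed TMM-scaled CPM of the nuclear members, the mitochondrial members and the mitochondrial rRNAs, and haemoglobin genes as a percent of counts, in each library, with mean and SD beside the points. The groups overlap in the first and second panels, and the fucoidan libraries lie above all saline libraries in the other panels.

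Calls among the genes that build and express the chain stand beside 9.11% of all genes called higher and 4.65% called lower. The lists are short, and no test was run over them. Assembly factors of complex I had 0 of 18 called higher and 2 lower, Dmac2 (-0.59, SE 0.112, edgeR adjusted p = 0.00648) and Acad9 (-0.37, SE 0.110, edgeR adjusted p = 0.0477). Among 6 factors of complex III, Lyrm7, which helps insert the Rieske protein, fell by 0.99 on the log2 scale (SE 0.273, edgeR adjusted p = 0.0341). Of 21 factors of complex IV 1 was called, Coa5, at 182 ± 20.7 CPM with saline (SD, n = 5) and 330 ± 87.0 with fucoidan (SD, n = 3) (0.86, SE 0.158, edgeR adjusted p = 0.00569). None of 4 factors of complex II or 5 of the ATP synthase was called in either direction.

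Genes that copy and express mitochondrial DNA had 0 of 28 called higher and 2 lower, beside 9.11% and 4.65% of all genes. These were Prorp, a subunit of mitochondrial RNase P (-1.01, SE 0.262, edgeR adjusted p = 0.0273), and Polg2, the accessory subunit of the mitochondrial DNA polymerase (-0.62, SE 0.161, edgeR adjusted p = 0.0280). Of 13 regulators of respiratory genes 0 were called. Of 8 mitophagy genes 2 rose: Bnip3l, the receptor that removes mitochondria from maturing red cells, at 475 ± 156 CPM with saline (SD, n = 5) and 1775 ± 917 with fucoidan (SD, n = 3) (1.90, SE 0.302, edgeR adjusted p = 0.00396), and Pink1, a kinase of damaged mitochondria (0.85, SE 0.199, edgeR adjusted p = 0.0172). Cytosolic ribosomal proteins, a set of short and abundant genes outside the organelle, had 0 of 80 called higher and 1 lower, with a median log2 change of -0.23.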

How the data were processed

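The authors deposited raw counts per gene, whole numbers for 56748 genes with names, biotypes, coordinates and gene lengths. Per the submitters' processing notes, reads were trimmed with cutadapt 4.0 and Trimmomatic 0.39 and aligned with HISAT2 2.2.1 to GRCm39. No source used here gives the counting program, annotation release, strand setting or handling of multiply mapped reads. Samples were grouped by title, although the fucoidan samples' treatment protocol mentions saline. All libraries carry 1 batch date, and there was no batch to compare.

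edgeR 4.0.16 under R 4.3.3 kept 14723 genes (filterByExpr), which were tested with its TMM-scaled quasi-likelihood test in robust mode, adjusted over all of them. The SE was taken as the absolute log2 change over the root of the F statistic. CPM per kilobase uses the deposited gene length, and coding lengths are from GENCODE M21. The edgeR procedure was tested on simulated counts in which all genes had 1 common dispersion. That simulation covered neither the other procedures nor the shift in haemoglobin share. Libraries that share a replicate number correlated at 0.177, 0.233 and 0.144 after the group means were removed. Fucoidan replicate 2 and saline replicate 5, which share no number, also correlated at 0.144. No label says that the numbers pair libraries, and whether they do was not settled. The reported fit does not use the numbers, and the fit with a replicate block is given where it changes a call. DESeq2 1.42.0, limma-voom (limma 3.58.1), other scalings and filters, and leaving out each library were alternatives. No library was a duplicate of another. P-values set the difference between the groups against the spread between these libraries, which edgeR estimates for each gene with information from all genes.

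The members and gene lists were chosen with earlier results of these data known. Genes described singly are all mitochondrial members, all called members, the highest and lowest nuclear member of each complex, a list of isoforms and core subunits, and up to 3 called genes of each pathway list. Cox5b, Atp5a1, Cyc1, Cycs and the mitochondrial ribosomal RNAs were added after their values were seen. Their own changes under the alternatives are not given. As members, Cox5b and Atp5a1 were part of the counts and medians given for those alternatives. Near copies are annotated pseudogenes aligned at 98% identity or more to the member's transcript.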

Additional observations from a re-analysis of the deposited data

Results flagged for a closer look

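In 3 of 46 groups of 5 saline libraries tested for a sample far from the rest, 1 library stood apart; chance flags about 1 group in 20. Atp5d was at 113.9 CPM in saline replicate 1 against 91.8 to 97.8 in the others. Sdhb was at 72.9 CPM in saline replicate 1 against 46.8 to 53.3. mt-Nd4l was at 5.21 CPM in saline replicate 3 against 2.15 to 2.98.

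Mitochondrial ribosomal RNAs, which are not members, were above every saline library after fucoidan. The mean of mt-Rnr1 was 5865 CPM (saline range 1466 to 2867) and that of mt-Rnr2 was 11507 CPM (saline range 3675 to 6524).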

How the results depend on the processing

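Of the 13 called members, 5 were called in all 17 other settings: Cox6b2, Cox5a, Cox7b, Ndufa1 and mt-Nd6. Leaving out 1 library gave 4 to 11 members higher and 1 to 3 lower. Without fucoidan replicate 3 the 4 higher were Cox6b2, Cox5a, Cox7b and Ndufa1; without saline replicate 4 or 5 there were 6 higher, and without fucoidan replicate 1 there were 7. One member was lower with median-of-ratios factors and with haemoglobin genes left out before scaling. Over all genes, leaving out 1 library gave 746 to 1368 higher and 182 to 856 lower (the lowest of each without fucoidan replicate 3); limma-voom gave 1063 lower and the replicate block 439. The block ended the calls of Atp5b and Cox6b1 and changed no other call among members. Without the genes that have a near copy, an alternative chosen after seeing the data, the difference in the log2 mitochondrial to nuclear ratio was -0.34, with groups that overlapped. The reported difference over all members, -0.17, ran from -0.25 to -0.11 with 1 library left out.

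Among the members followed singly through the alternatives, signs turned for uncalled genes only. With all libraries kept, these were Atp5g1 (0.0658 with limma-voom, -0.05 reported), Cox4i1 (0.0138 with median-of-ratios factors, 0.00765 with DESeq2), mt-Co1 (-0.0255 with upper-quartile factors, -0.00573 with the replicate block), mt-Co3 (-0.0286 with the block) and mt-Nd4 (0.00386 with median-of-ratios factors). Signs of further members turned too, as nuclear members above 0 went from 34 to 43 with median-of-ratios factors. With 1 library left out, the log2 change ran from -0.18 to 0.0547 for Atp5g1, from -0.0740 to 0.0759 for Cox4i1, from -0.92 to 0.19 for Cox7a1, from -0.0020 to 0.0814 for mt-Co1, from -0.10 to 0.40 for mt-Co3, from -0.19 to 0.0469 for mt-Nd3 and from -0.0773 to 0.0656 for mt-Nd4. The cause of these changes was not tested. Low counts limit mt-Nd4l, mt-Atp8 and Cox7a1.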
